A study of Homo sapiens with 32 samples.

Results

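Middle exons under 100 nt are the short internal pieces of human mRNAs, joined on both sides to other exons by splicing. They were taken here as the exons, neither first nor last, of the canonical transcript of each protein-coding gene on GRCh37. The rule used length and order alone, and no tag value entered it. It gave 53964 short middle exons out of 165440 middle exons, or 32.6% of the exons but 15.4% of their sequence. They lay in 12985 genes, with up to 138 in a single transcript and a median length of 76 nt. Middle exons of 100 to under 200 nt, of which there were 89046 with a median length of 137 nt, served for comparison and are called medium exons here.

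When exons are joined, the spliceosome leaves an exon junction complex (EJC) on the mRNA a short way upstream of the new junction. Alyref is an RNA-binding adaptor of TREX, the complex that couples transcription and splicing to mRNA export, and it contacts both the EJC and the cap-binding complex. Chtop is another adaptor of TREX, and Nxf1 is the receptor that carries mRNPs through the nuclear pore. A short middle exon has a junction close to each of its ends, so that the preceding junction lies only a short way upstream of its own.

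The data were iCLIP tags from FlpIn293 cells, as the study names them. This is a human cell line of embryonic kidney origin in which a transgene is put in at a fixed recombination site. Stable lines carried FLAG-tagged Alyref, Chtop or Nxf1 beside the endogenous gene, and the Control line carried the FLAG construct without a protein. Expression of the tagged proteins was switched on with tetracycline over 48 h. The dose was 5 ng/mL in the Nxf1 line and 10 ng/mL in the lines of both adaptors, so that the induction of Nxf1 differed. For the Control line neither dose nor time is stated. The same anti-FLAG antibody was used throughout. Each group had 3 libraries, numbered 1 to 3. The labels do not say whether these came from separate cultures, nor whether libraries of the same number belong together. The p-values thus measure the spread between these libraries, which may be technical, and agreement by replicate number is descriptive.

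A tag is a deduplicated cDNA placed at its crosslinked base. Libraries held 7017 to 631704 tags in all, and 178 (Nxf1 1) to 34206 (Alyref 2) tags in short middle exons. The share of all tags that fell in short middle exons was 4.42% to 5.42% in Alyref, 1.96% to 2.16% in Chtop, 1.02% to 2.19% in Nxf1 and 0.487% to 3.49% in the Control. Replicate 1 was the shallowest library of the 3 factors and of the Control, and in short exons it stood apart from the others on some measures. Uracil made up 34.3% of the crosslinked bases in Nxf1 1 and 36.3% in Control 1, the lowest values of the 12 libraries. In Control 1 the density of short exons over their flanking introns was also far above that of Control 2 and 3. The main measures are therefore given for each library.

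Sequences of 8 short exons are shown here because the comparisons below turn on them or because they are among the smallest exons with many tags. All are wholly coding, are read 5′ to 3′ on the strand of the gene from the GRCh37 genome, and have in capitals the bases with 2 or more tags over the 12 libraries (T stands for uracil in the RNA). CCNL2 exon 2 lies at chr1:1333977-1334051 (minus strand), NASP exon 2 at chr1:46056895-46056942 (plus), RPL10A exon 2 at chr6:35436576-35436650 (plus) and PCID2 exon 2 at chr13:113854741-113854830 (minus). RPS19 exon 2 lies at chr19:42364845-42364915 (plus), DDX39B exon 4 at chr6:31506540-31506632 (minus), UBR4 exon 10 at chr1:19518975-19519034 (minus) and LMF2 exon 3 at chr22:50945067-50945095 (minus).
CCNL2 exon 2: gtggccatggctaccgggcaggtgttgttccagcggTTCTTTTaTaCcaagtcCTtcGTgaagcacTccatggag
NASP exon 2: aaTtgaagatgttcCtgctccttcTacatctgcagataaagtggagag
RPL10A exon 2: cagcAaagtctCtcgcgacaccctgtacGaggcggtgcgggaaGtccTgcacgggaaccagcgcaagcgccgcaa
PCID2 exon 2: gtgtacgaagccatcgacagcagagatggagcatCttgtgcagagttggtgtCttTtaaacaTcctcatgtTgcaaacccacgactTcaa
RPS19 exon 2: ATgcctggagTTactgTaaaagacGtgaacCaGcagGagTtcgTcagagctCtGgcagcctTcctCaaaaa
DDX39B exon 4: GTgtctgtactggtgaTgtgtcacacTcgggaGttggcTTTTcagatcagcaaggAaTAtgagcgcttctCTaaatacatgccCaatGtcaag
UBR4 exon 10: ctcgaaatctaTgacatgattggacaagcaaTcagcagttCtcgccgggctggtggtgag
LMF2 exon 3: gtgggccaggtgttCcTtTatttccagtg
The capitals are scattered single bases or short runs rather than 1 site per exon. In CCNL2 exon 2, 14 bases carried at least 2 tags and 71.4% of these were uracil, with the densest stretch in the middle of the exon. In RPL10A exon 2, which has only 10.7% uracil, 5 bases did so.

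Tags were spread thinly over many short exons. Of the 53964 exons, 26122 held a tag in any library, 8693 of these held a single tag and 266 held 20 or more. The 100 exons with the most tags held 3.84% of the 91849 tags. Over its 3 libraries Alyref had a tag in 42.0% of short exons (95% Wilson interval 41.6 to 42.4), Chtop in 22.6% (22.3 to 23.0), Nxf1 in 6.61% (6.40 to 6.82) and the Control in 1.76% of them. In the 3785 exons under 40 nt these shares were 17.4%, 8.38%, 1.85% and 0.502%. The shares depend on depth, and the intervals cover counting error only.

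Alyref crosslinked to short middle exons more densely than to longer ones, and Chtop less densely. Density is tags per nt, given as the log2 ratio to medium exons of the same library. For all short exons the ratio was 0.34, 0.30 and 0.32 in Alyref 1, 2 and 3, -0.19, -0.46 and -0.48 in the Chtop libraries, -0.27, -0.00 and 0.05 in the Nxf1 libraries and 0.17, 0.26 and 0.12 in the Control. The 3 Alyref libraries thus lay above all 9 others, the 3 Chtop libraries overlapped with Nxf1 1 alone, and the Control lay between Alyref and Nxf1. In the same libraries short exons took 21.1% to 21.3% of the middle-exon tags of Alyref, 9.76% to 12.7% of those of Chtop, 11.7% to 17.0% of those of Nxf1 and 17.1% to 19.8% of those of the Control. RNA levels were not measured in these files, so that more binding and a more often included exon cannot be told apart, nor can fewer bound cells and fewer tags per cell.

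Each factor was set against the 6 libraries of the other factors and against the 3 of the Control with a two-sided exact permutation test of the difference of means. Here p is the share of all ways to assign the libraries whose absolute difference was at least as large, so that it cannot go below 0.0119 for 3 against 6 libraries (84 ways) or below 0.1 for 3 against 3 (20 ways). Adjustment was made over 24 comparisons in each family, and the smallest adjusted p among the first was 0.0714, so no measure below passed 0.05 after adjustment. For short exon density Alyref exceeded the other factors by 0.55 (exact permutation p 0.0119, adjusted 0.0714), with the same sign in 3 of 3 replicate numbers. Without replicate 1, where p cannot go below 0.0667, this was 0.54 (exact permutation p 0.133). Chtop lay below Alyref and Nxf1, with a difference of -0.50 (exact permutation p 0.0357, adjusted 0.122, lower in 3 of 3 replicate numbers). Leaving out Alyref 1, 2 or 3, Chtop 2 or 3, or Nxf1 2 or 3 raised this p to between 0.0536 and 0.0714. Nxf1 was at -0.05 from Alyref and Chtop (exact permutation p 0.81), and at 0.10 without replicate 1. Against the Control Alyref differed by 0.14, Chtop by -0.56 and Nxf1 by -0.26 (-0.16 without Nxf1 1), each with no overlap of libraries and each at the smallest exact permutation p of 0.1 (adjusted 0.218). The 3 comparisons share the Control libraries. The size of the differences depended on the reference. Against all middle exons of 100 nt or more, Alyref was at 0.89 and Chtop at -0.84 from the other factors (exact permutation p 0.0238 and 0.0357), and Chtop at -0.93 from the Control. Where short exons were set against medium exons of their own transcripts, so that the level of the transcript entered both, these values were 0.37, -0.31 and -0.34 (exact permutation p 0.0119, 0.0357 and 0.1).

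**Figure D1:**
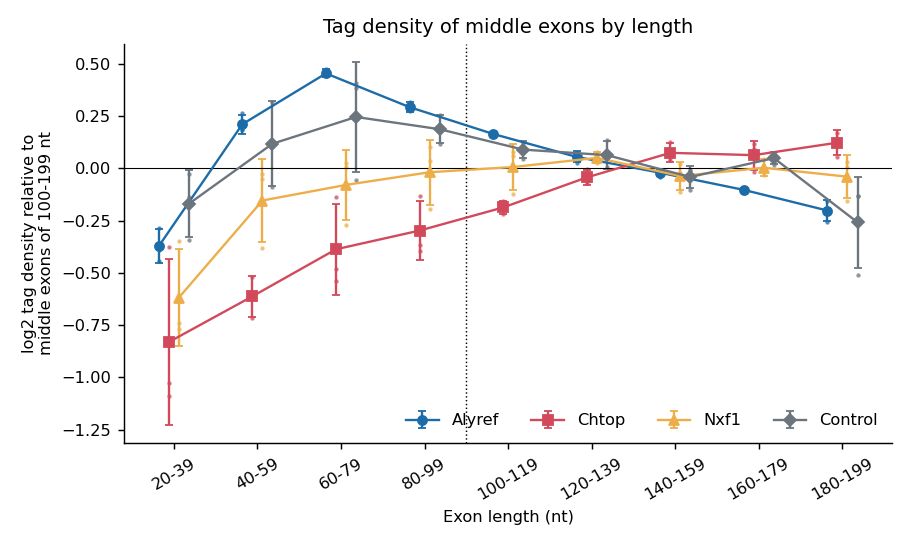
Log2 tag density of middle exons by length in steps of 20 nt, relative to medium exons of the same library. Large symbols are means of 3 libraries with SD bars, small points are libraries and the dotted line is the limit of 100 nt; Alyref rises to 0.45 at 60-79 nt, where Chtop is at -0.39, and both come near 0 from 120 to under 160 nt.

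The profile over length was not a straight line for Alyref. Its log2 density was -0.37 ± 0.08 (SD, n = 3) at 20-39 nt, 0.21 ± 0.05 (SD, n = 3) at 40-59 nt, 0.45 ± 0.02 (SD, n = 3) at 60-79 nt and 0.29 ± 0.02 (SD, n = 3) at 80-99 nt. Chtop climbed at each step, from -0.83 ± 0.40 (SD, n = 3) through -0.61 ± 0.10 (SD, n = 3) and -0.39 ± 0.22 (SD, n = 3) to -0.30 ± 0.14 (SD, n = 3). Nxf1 went from -0.62 ± 0.23 (SD, n = 3) at 20-39 nt to -0.02 ± 0.16 (SD, n = 3) at 80-99 nt, with a standard deviation at each step larger than the step from 60-79 to 80-99 nt. The Control had its highest mean, 0.25 ± 0.26 (SD, n = 3), at 60-79 nt like Alyref. The 390 exons under 20 nt held 29 Alyref tags, 10 Chtop tags and none of Nxf1 or the Control, too few for a density.

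Across the limit of 100 nt density fell in Alyref, with libraries that did not overlap, while the Chtop libraries overlapped. Exons of 90-99 nt, just inside it, were at 0.29 ± 0.03 (SD, n = 3) in Alyref and -0.22 ± 0.15 (SD, n = 3) in Chtop. Exons of 100 to under 110 nt, just outside, were at 0.19 ± 0.01 (SD, n = 3) and -0.24 ± 0.02 (SD, n = 3). At the far end, middle exons of 200 nt or more were at -0.68 in Alyref and 0.46 in Chtop. The Control was at 0.23 ± 0.05 (SD, n = 3) just inside the limit and 0.19 ± 0.07 (SD, n = 3) just outside it. In exons of 200 nt or more it was at -0.43 ± 0.25 (SD, n = 3), and Nxf1 was at -0.07 ± 0.42 (SD, n = 3). Lower density in the longest exons was thus seen in the Control as well as in Alyref.

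Within the short exons, the gradient of density with length was steepest in Chtop. The log2 ratio of exons of 80-99 nt to exons of 40-59 nt was 0.38, 0.35 and 0.21 in the Chtop libraries, all above the 0.14, 0.08 and 0.03 of Alyref and the 0.19, 0.06 and 0.16 of Nxf1. Control values of 0.21, -0.13 and 0.13 overlapped with those of Alyref and Nxf1. Chtop exceeded the other factors by 0.21 (exact permutation p 0.0119, adjusted 0.0714, higher in 3 of 3 replicate numbers) and the Control by 0.25 (exact permutation p 0.1), or by 0.15 without Control 2.

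The position of tags inside short exons differed little between groups. In exons of 40-99 nt, 47.9% to 48.5% of Alyref tags lay past the midpoint of the exon. The range was 47.9% to 49.4% in Chtop, 48.8% to 49.8% in Nxf1 and 47.7% to 52.1% in the Control. No difference passed the test, the nearest being -0.83 percentage points for Alyref against the other factors (exact permutation p 0.0833). It passed without Chtop 1, at -1.06 points (exact permutation p 0.0179), and was -1.25 without replicate 1 (p 0.0667, the smallest possible by exact permutation). The last 20% of the exon held the fewest tags of Alyref, at 16.1% ± 0.191 (SD, n = 3). Chtop had 18.1% ± 0.833 (SD, n = 3) there, Nxf1 had 18.7% ± 1.42 (SD, n = 3) and the Control had 16.1% ± 1.82 (SD, n = 3). In medium exons that last part held 20.5% of Alyref tags, close to an even spread. In exons of 80-99 nt the last 10 nt were at 0.689 to 0.783 of the mean density of the exon in the 4 groups, and the stretch 31-40 nt from the 3′ end was at 1.16 in Alyref, 1.19 in Chtop, 1.16 in Nxf1 and 1.38 in the Control.

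Junctions at the 3′ end of short exons were then taken in transcript coordinates, so that the space upstream of the junction runs on into the preceding exon. Among 48730 such junctions there were 150721 Alyref tags, 55914 Chtop tags, 10469 Nxf1 tags and 2393 Control tags within 100 nt. The window used here follows the region where the study saw Alyref enriched at junctions between longer exons, in these same libraries. It was thus chosen on the Alyref profile, which can favour Alyref over the other factors. The share of tags in this window was averaged over junctions with a tag, each weighted equally. On this average the window, from 75 to 24 nt upstream, held 30.3%, 30.2% and 29.6% in the Alyref libraries. It held 26.7%, 24.7% and 24.3% in Chtop, 27.4%, 26.5% and 27.2% in Nxf1 and 31.4%, 30.3% and 28.2% in the Control. Alyref exceeded each library of the other factors but lay inside the range of the Control. Because of how the window was chosen, the comparisons below that involve Alyref are descriptive. Their p-values give no independent support for a difference.

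The Alyref window share was higher than that of Chtop and Nxf1 by 3.90 points (exact permutation p 0.0119, adjusted 0.0714, higher in 3 of 3 replicate numbers) and 0.0486 points above the Control (exact permutation p 1). Chtop was at -3.28 points from Alyref and Nxf1 (exact permutation p 0.0357, adjusted 0.122), and p rose to between 0.0536 and 0.143 without Alyref 1, 2 or 3, Chtop 2 or 3, or Nxf1 1 or 3. Against the Control, Chtop differed by -4.73 points and Nxf1 by -2.97 points, both without overlap (exact permutation p 0.1 each). Bins of 10 nt were taken with tags summed over junctions, unlike the window share. The highest bin of Alyref was 31 to 40 nt upstream, with 6.43% ± 0.152 (SD, n = 3) of the tags, against 3.93% in the last 10 nt. The Control had its highest bin in the same place, at 6.79% ± 0.407 (SD, n = 3). The highest Chtop bin lay in the first 10 nt of the next exon, at 5.63% ± 0.115 (SD, n = 3), with 5.37% at 31 to 40 nt upstream. Nxf1 was at 5.55% ± 0.695 (SD, n = 3) there and at 5.56% at 11 to 20 nt upstream.

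**Figure D2:**
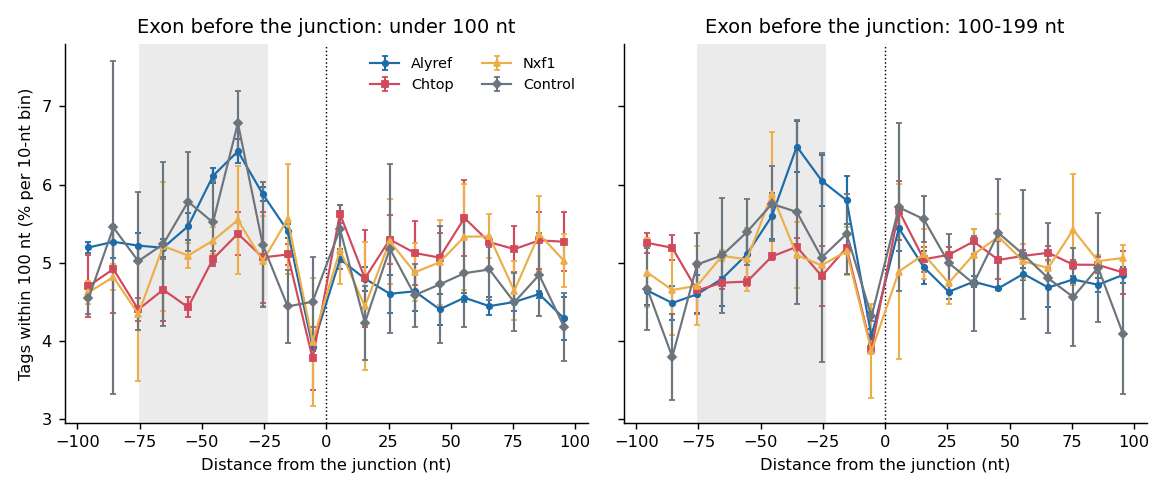
Percentage of tags within 100 nt of a junction in bins of 10 nt, for junctions at the 3′ end of short exons (left) and medium exons (right), with the window 75 to 24 nt upstream in grey and the junction dotted. Points are means of 3 libraries with SD bars; at short exons Alyref and the Control both have their highest bin 31 to 40 nt upstream (6.43% and 6.79%), while the Chtop profile stays between 3.78% and 5.63%.

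At 27438 of these junctions the preceding exon was at least 100 nt long. There 85.8% of the sequence of the window lay in the short exon itself, and the remainder in the preceding exon. The short exon held 89.6% ± 0.55 (SD, n = 3) of the window's Alyref tags, 90.2% ± 1.35 (SD, n = 3) of its Chtop tags, 88.3% ± 1.64 (SD, n = 3) of its Nxf1 tags and 89.7% ± 3.50 (SD, n = 3) of its Control tags. The 4 groups thus overlapped. In the mean of each, the part of the window behind the preceding junction held fewer tags than its share of the sequence. In Control 2 the short exon held 85.8% of the window's tags, so that this library showed no such deficit.

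In the exon before a short exon, too, Alyref was the highest and Chtop the lowest group, while the Nxf1 and Control libraries interleaved. In the last 50 nt of preceding exons of at least 100 nt, density before a short exon relative to that before a medium exon was 0.10, 0.05 and 0.11 (log2) in Alyref and -0.18, -0.43 and -0.41 in Chtop. It was -0.09, 0.01 and -0.10 in Nxf1 and -0.01, 0.02 and -0.14 in the Control. These ratios rested on 26985 exons before a short exon, with 20902 Alyref, 8023 Chtop, 1461 Nxf1 and 305 Control tags. Chtop lay below every library of the other groups, with a difference of -0.35 from the other factors (exact permutation p 0.0119, adjusted 0.0714) and -0.29 from the Control (exact permutation p 0.1). Alyref lay above them, by 0.29 over the other factors (exact permutation p 0.0476, adjusted 0.143) and 0.13 over the Control (exact permutation p 0.1). The p of Alyref against the other factors rose to 0.0536 or 0.0714 without any of Alyref 1 to 3, Chtop 1 to 3, Nxf1 1 or Nxf1 3.

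**Figure D3:**
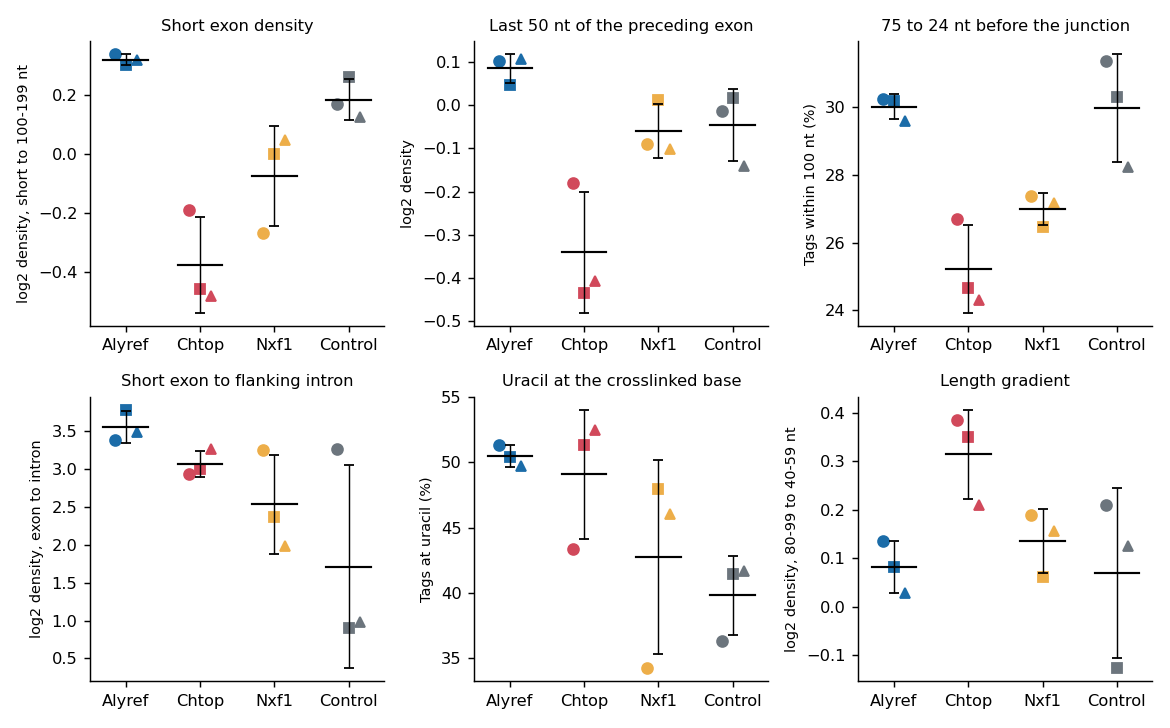
6 measures of short middle exons in each of the 12 libraries, with circles for replicate 1, squares for 2 and triangles for 3, bars for means and SD, and axes that do not start at 0. Alyref and Chtop libraries do not overlap in the short exon density, the preceding exon, the window, the exon to intron ratio and the gradient, while Control 1, at 3.26 in the exon to intron panel, lies far above Control 2 and 3.

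Short exons were denser than the 100 nt of intron on each side of them in all libraries. The log2 ratio was 3.39, 3.79 and 3.49 in Alyref, 2.94, 3.00 and 3.27 in Chtop, 3.26, 2.36 and 1.99 in Nxf1 and 3.26, 0.90 and 0.98 in the Control. The flanks held 13531, 6576, 2440 and 1102 tags of the 4 groups. Alyref lay above all others, with a difference of 0.75 from the other factors (exact permutation p 0.0595, adjusted 0.143) and 1.84 from the Control (exact permutation p 0.1), or 2.70 without replicate 1. The former passed without Nxf1 2 or 3, at 0.67 and 0.59 (exact permutation p 0.0357 each). Nxf1 was at -0.78 from Alyref and Chtop (exact permutation p 0.0357, adjusted 0.122), a p that was between 0.0536 and 0.179 without Alyref 1, 2 or 3, Chtop 3, or Nxf1 2 or 3. Without replicate 1 the difference was -1.21 (exact permutation p 0.0667). The intron upstream, which ends in the polypyrimidine tract and acceptor, was the denser of the flanks. Alyref was at 3.25 over the upstream and 3.95 over the downstream side, Chtop at 2.80 and 3.41, Nxf1 at 2.27 and 2.85 and the Control at 1.44 and 2.04. Medium exons gave 3.36, 3.29, 2.62 and 1.69 over both sides in the same order (mean log2 ratios). The difference between short and longer exons was not tested on this measure.

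UV light crosslinks protein to uracil more readily than to other bases, and 46.1% to 52.5% of the crosslinks in short exons fell on uracil in the deeper libraries of the factors. Uracil was 23.1% of the sequence of short exons, but 51.4%, 50.4% and 49.7% of the tags of Alyref, 43.4%, 51.4% and 52.5% of those of Chtop, 34.3%, 47.9% and 46.1% of those of Nxf1 and 36.3%, 41.5% and 41.7% of those of the Control. The Nxf1 share was at -7.04 points from that of Alyref and Chtop (exact permutation p 0.0595, adjusted 0.143, lower in 3 of 3 replicate numbers), or at -4.0 without replicate 1, -2.79 without Nxf1 1 and -8.32 without Chtop 1 (the last with exact permutation p 0.0179). Alyref exceeded the Control by 10.7 points and Chtop by 9.26 points, without overlap (exact permutation p 0.1 each). The mean shares of the other bases were below their share of the sequence in each group. Adenine, 28.6% of the sequence, had 14.7% of Alyref and 22.4% of Control tags, and guanine, 25.3% of it, had 16.8% and 17.1%.

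Density in short exons also followed their uracil content. Exons of 40-99 nt were put in 3 bins of uracil content of about equal size, with 15.9%, 23.0% and 30.5% uracil on average. Relative to all of them, log2 density in the uracil-poor bin was -0.67 ± 0.03 (SD, n = 3) in Alyref and -0.65 ± 0.05 (SD, n = 3) in Chtop. In the uracil-rich bin it was 0.50 ± 0.01 (SD, n = 3) and 0.49 ± 0.05 (SD, n = 3). The values of Alyref and Chtop thus differed by less than the SD of Chtop in both bins. Nxf1 was at -0.51 ± 0.26 (SD, n = 3) in the uracil-poor and 0.38 ± 0.14 (SD, n = 3) in the uracil-rich bin. The Control was at -0.47 ± 0.45 (SD, n = 3) and 0.46 ± 0.22 (SD, n = 3), with Control 3 at 0.04 in the uracil-poor bin. Uracil content was not tested between groups. Short and medium exons had nearly the same uracil, 23.1% and 22.8%, and differed more in GC content, 48.2% and 50.5%.

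Short exons differed from longer ones in how they are used. They lay wholly inside an intron of another annotated transcript of the gene, and can thus be skipped whole, in 23.0% of cases against 17.9% of medium exons. This share was 31.2% at 20-39 nt and 56.4% under 20 nt. Lengths that are a multiple of 3, which keep the reading frame when an exon is skipped, made up 42.7% of short exons, 53.6% of those of 20-39 nt and 70.3% of those under 20 nt, against 38.9% of medium exons. Wholly coding exons made up 95.1% and 95.8%, and the AG acceptor was present at 99.5% of short exons.

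Tag density of the 12432 skippable short exons relative to the other 41532 was 0.09, 0.15 and 0.14 (log2) in Alyref, -0.01, -0.04 and -0.12 in Chtop, -0.26, 0.11 and 0.21 in Nxf1 and 0.38, -0.07 and 0.32 in the Control. No comparison passed the test, the nearest being Alyref against the other factors with 0.14 (exact permutation p 0.19) and Chtop with -0.13 (exact permutation p 0.238). Without Nxf1 1 the Chtop difference was -0.20 and passed (exact permutation p 0.0179). Short exons with a length that is a multiple of 3 were less dense than the rest by similar amounts in the groups, with -0.19 ± 0.02 (SD, n = 3) in Alyref, -0.19 ± 0.07 (SD, n = 3) in Chtop, -0.08 ± 0.16 (SD, n = 3) in Nxf1 and -0.23 ± 0.07 (SD, n = 3) in the Control. This was a description and was not tested.

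Short exons near the start of the transcript were the denser ones in Alyref. The 5377 short exons that come directly after the first exon had a log2 density of 0.46 ± 0.02 (SD, n = 3) relative to all short exons in Alyref, against 0.02 ± 0.13 (SD, n = 3) in Chtop, 0.30 ± 0.28 (SD, n = 3) in Nxf1 and 0.25 ± 0.16 (SD, n = 3) in the Control. The 34650 short exons from the sixth on were at -0.15 in Alyref, 0.02 in Chtop, -0.12 in Nxf1 and -0.09 in the Control. Set against medium exons of the same order, the short exons after the first were at 0.49 ± 0.04 (SD, n = 3) in Alyref and -0.25 ± 0.19 (SD, n = 3) in Chtop, and those from the sixth on at 0.22 and -0.43. The sign of the mean was thus the same in these classes of order for both factors. Differences between classes of order were not tested. With the exon after the first left out everywhere, Alyref exceeded the pair of other factors by 0.53 (exact permutation p 0.0119) and Chtop lay at -0.49 from them (exact permutation p 0.0357).

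**Figure D4:**
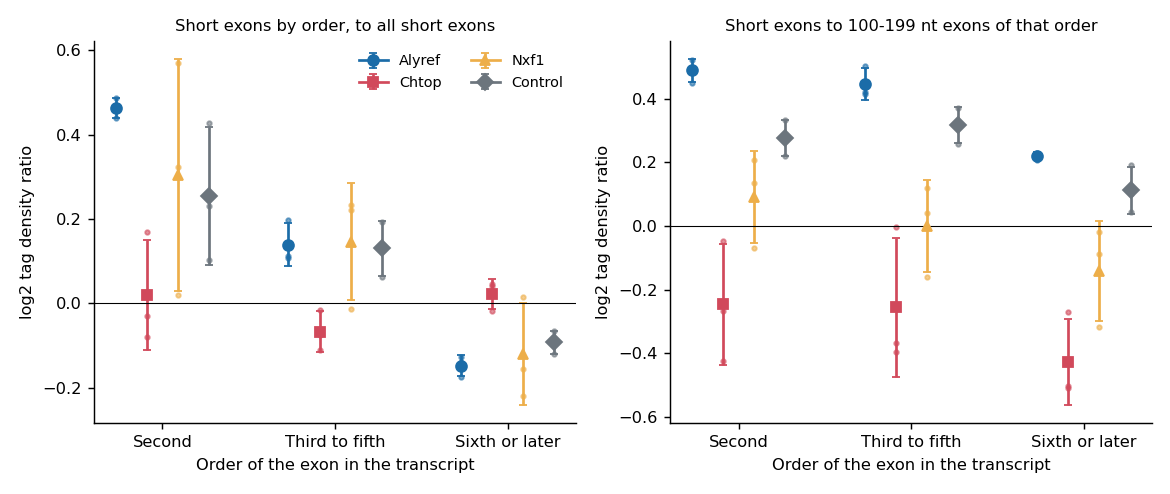
Log2 tag density of short middle exons by their order in the transcript, relative to all short exons (left) and to medium exons of the same order (right). Large symbols are means of 3 libraries with SD bars and small points are libraries; Alyref falls from 0.46 in the exon after the first to -0.15 from the sixth exon on, and Chtop stays below 0 in each class of order on the right.

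Single exons were compared between Alyref and Chtop with edgeR on all middle exons with at least 20 tags over the 12 libraries. This left 4271 middle exons, among them 266 short ones, or 0.493% of all short exons. Among the 4271, 4.92% were called higher in Alyref and 3.49% lower (adjusted p under 0.05). Of the 266 short exons 59 were called higher in Alyref, or 22.2%, and 0 lower, with a median log2 fold change of 1.36 against 0.02 over all 4271. The filter takes tags of all groups together, and Alyref gave 68.9% of the tags of the short exons tested. Without its tags 6 of the 266 would have reached 20, and none of the 59, while 105 and 51 would have done so without the tags of Chtop. Most short exons were thus tested because of their Alyref tags, so that these counts, and the absence of lower calls, describe the exons tested and support no difference between Alyref and Chtop over short exons. The comparison is of relative levels: with size factors from the median ratio in place of TMM, 219 short exons were called higher and the median over all exons moved to 1.06, and with all tags of the library as its size 47 were called and that median was -0.35. Over all 4271 exons 1506 were called higher and 11 lower with the median ratio, and 162 and 623 with all tags.

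By length, calls were spread over the steps. Of the exons tested, 27 of 81 at 60-79 nt, 27 of 161 at 80-99 nt and 4 of 23 at 40-59 nt were called higher in Alyref, and of the medium exons 140 of 1720 were called higher and 1 lower. The 59 exons belonged to 48 genes and had log2 fold changes between 1.83 and 5.29. The exon after the first made up 26 of the 59 called and 49 of the 266 tested, and skippable exons made up 21 and 63. In each of the 59, Alyref 2 and 3 lay above Chtop 2 and 3 in CPM (tags scaled to library size), and in 37 all 3 Alyref libraries lay above all 3 Chtop libraries. The exons were called on these same libraries, so this agreement follows from the choice and gives no further support. The count of 59 rested on the deep libraries of both factors: it was 17 without Alyref 2, 11 without Alyref 3, 0 without Chtop 2 and 11 without Chtop 3. Without replicate 1 of every group it was 85. DESeq2 called 15 of 164 short exons. Calls over all middle exons moved as well. Without Alyref 2, Alyref 3, Chtop 2 and Chtop 3 they were 42, 36, 1 and 31 higher and 4, 2, 4 and 3 lower. Without replicate 1 they were 322 higher and 375 lower, and with DESeq2 54 and 0.

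The short exons with the highest mean CPM in Alyref were in genes for a splicing-related cyclin, a DNA repair protein and a glycolytic enzyme. This order leans on the 5 to 7 tags of each in the shallow Alyref 1: LENG8 exon 2 and DDX39B exon 4, described below, held 53 and 49 Alyref tags in all, against 46 in CCNL2 exon 2, 43 in ENO1 exon 2 and 38 in FANCA exon 3. CCNL2 exon 2 (cyclin L2) held 7, 23 and 16 Alyref tags and 0, 4 and 4 Chtop tags in replicates 1, 2 and 3. The log2 fold change was 2.49 ± 0.60 (SE, edgeR adjusted p 0.0037). The SE of single exons, here and below, was derived from the fold change and its test statistic. It adds nothing beyond the p-value. FANCA exon 3, of a Fanconi anaemia repair gene, held 6, 15 and 17 Alyref and 0, 4 and 3 Chtop tags (2.4 ± 0.62, adjusted p 0.00655). ENO1 exon 2, of the glycolytic enolase, held 5, 21 and 17 Alyref tags, 0, 3 and 1 Chtop tags and 0, 6 and 2 Nxf1 tags (3.27 ± 0.70, adjusted p 0.000763). In these 3 exons, picked for their Alyref level, the Alyref counts of the deep libraries lay well above those of Chtop at like depth. FANCA exons 10 and 38 were also among the 59, as were several exons of TRMT11, KNTC1, TAF15, MTA1, IARS1, PAXBP1, SRSF11 and HNRNPL; these were named after their values were seen.

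The largest fold changes belonged to exons with hardly any Chtop tag. A ranking by fold change favours such exons, which were tested because of their Alyref tags. The values below thus describe these exons and support no wider difference. PPHLN1 exon 2 held 0, 14 and 10 Alyref tags and no Chtop tag, and NASP exon 2 (a histone chaperone) 1, 9 and 11 and no Chtop tag. Taken over the group against a floor of 3 Chtop tags, Alyref was 6.17-fold higher in PPHLN1 and 5.40-fold in NASP, counting error left aside (edgeR adjusted p 0.000492 and 0.000763). With DESeq2 PPHLN1 exon 2 was not called (log2 5.23, DESeq2 adjusted p 0.512). It also held 1 tag in Control 2, worth 21.5 CPM there, against 22.2 CPM in Alyref 2. RPL10A exon 2 held 3, 14 and 13 Alyref tags and a single Chtop tag, in Chtop 3, a ratio of 23.1 (exact interval 3.85 to 944). PCID2 exon 2 (a subunit of the TREX-2 complex) held 2, 11 and 12 and also 1 in Chtop 3, a ratio of 19.3 (3.16 to 792). Such ratios, here and below, take the tags of a group's libraries together, and their intervals cover counting error only. These 4 exons are each the exon after the first, and PPHLN1 and NASP exon 2 are skipped in other transcripts. Their uracil content ranged from 10.7% in RPL10A exon 2 to 29.2% in NASP exon 2.

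**Figure D5:**
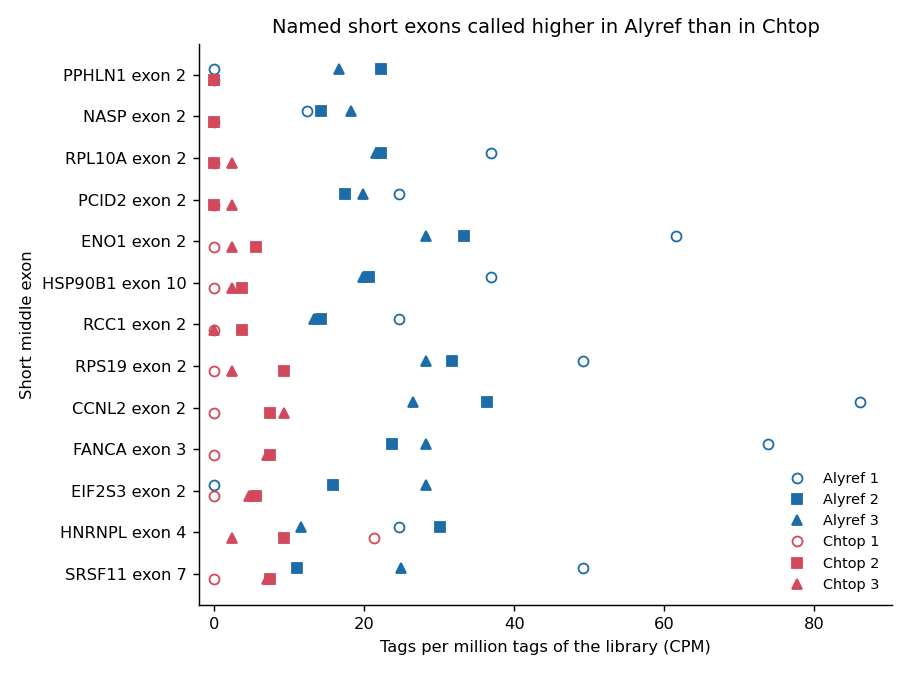
CPM (tags scaled to the size of the library) in the 13 named short exons called higher in Alyref (blue) than in Chtop (red), with circles for replicate 1, squares for 2 and triangles for 3. Alyref 2 and 3 lie to the right of Chtop 2 and 3 in each row, which follows from the choice of called exons. In the shallow replicate 1 some exons, such as PPHLN1 exon 2, had no tag in either factor.

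Among gene families, the hnRNP, cytosolic ribosomal protein and SR protein genes had the highest shares of short exons with a tag. Of the 108 short exons of ribosomal protein genes 99 held a tag, with 660 Alyref, 148 Chtop, 224 Nxf1 and 15 Control tags. Of 11 tested, 5 were higher in Alyref (RPL10A, RPL28, RPS24, RPS19 and RPS4X, each exon 2) and 0 lower. Such counts in the families stand beside 22.2% called higher of all short exons tested and 4.92% of all middle exons, with few exons tested in each, and the limit set by the filter holds for them too. RPS19 exon 2, which holds the start codon, had 4, 20 and 17 Alyref tags, 0, 5 and 1 Chtop tags and 0, 9 and 2 Nxf1 tags (log2 2.69 ± 0.66, adjusted p 0.00417). Ribosomal protein genes have many processed pseudogene copies, so that their counts are uncertain under unique mapping. In this family short exons were at 0.84 ± 0.16 (SD, n = 3) in Alyref and 0.24 ± 0.17 (SD, n = 3) in Chtop relative to its medium exons (log2 density), and at 0.64 ± 0.17 (SD, n = 3) in the Control.

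Genes of RNA processing were tagged as widely. The hnRNP genes, which package nascent transcripts, had 59 of 64 short exons with a tag, and 3 of 9 tested were higher in Alyref: HNRNPH1 exon 12 and HNRNPL exons 4 and 12. HNRNPL exon 4 held 2, 19 and 7 Alyref tags and 1, 5 and 1 Chtop tags (log2 1.91 ± 0.64, adjusted p 0.0411, and 0.0631 with all tags as the library size). SR protein genes, for splicing activators, had 19 of 21 short exons with a tag, and 2 of 3 tested were higher, both in SRSF11 (exons 5 and 7). SRSF11 exon 7 held 4, 7 and 15 Alyref tags and 0, 4 and 3 Chtop tags (1.85 ± 0.64, adjusted p 0.0487), and its adjusted p was 0.0592 without replicate 1 and 0.0811 with all tags as the library size. Relative to the medium exons of the family, short exons of hnRNP genes were at -0.26 ± 0.37 (SD, n = 3) in Alyref and -1.3 ± 0.55 (SD, n = 3) in Chtop (log2 density). Those of SR protein genes were at 0.56 ± 0.26 (SD, n = 3) and 0.31 ± 0.73 (SD, n = 3).

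Genes of translation and protein folding gave fewer tested exons. Translation initiation factors had 127 of 179 short exons with a tag and 1 of 2 tested higher, EIF2S3 exon 2, with 0, 10 and 17 Alyref and 0, 3 and 2 Chtop tags (2.31 ± 0.68, adjusted p 0.0176). Chaperonin and heat-shock genes had 59 of 81 with a tag and 1 of 2 higher, HSP90B1 exon 10, with 3, 13 and 12 Alyref and 0, 2 and 1 Chtop tags, a ratio of 7.20 (exact interval 2.22 to 37, edgeR adjusted p 0.00514). Proteasome subunits had 139 of 177 with a tag and none tested. Their most tagged exon, PSMA1 exon 2 of 45 nt, held 0, 5 and 9 Alyref tags and 1 tag in Chtop 3. Collagen genes, for the extracellular matrix, had 196 of 1370 short exons with a tag, none of them tested, and their most tagged, COL25A1 exon 3, held 4 tags. In Alyref the log2 density of short relative to medium exons was 0.05 ± 0.26 (SD, n = 3) in initiation factors, 0.42 ± 0.14 (SD, n = 3) in chaperonin and heat-shock genes, 0.41 ± 0.11 (SD, n = 3) in proteasome genes and -0.66 ± 0.21 (SD, n = 3) in collagens. Collagens thus went the other way from all short exons together, as did the means of hnRNP (-0.26 ± 0.37) and nuclear export genes (-0.28 ± 0.40, SD, n = 3). In the Control the ratio was 1.14 ± 0.64 (SD, n = 3) in initiation factors, on 11 tags, and 1.035 ± 0.74 (SD, n = 3) in proteasome genes, on 7. It was -0.89 ± 0.56 (SD, n = 3) in chaperonin and heat-shock genes, on 1 tag, and -0.14 ± 0.67 (SD, n = 3) in collagens, on 7.

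Genes of the export machinery and the EJC themselves were not set apart by the exon test. Nuclear export genes had 81 of 92 short exons with a tag, and of 8 tested 0 were called by edgeR, with a median log2 fold change of 1.01. DDX39B exon 4, of the helicase that brings Alyref to mRNA, was the most tagged, with 4, 24 and 21 Alyref tags, 0, 13 and 7 Chtop tags and 1, 0 and 1 Nxf1 tags (log2 1.31 ± 0.52, adjusted p 0.0899). EJC and NMD genes had 47 of 55 with a tag and 1 of 6 tested higher, PNN exon 5 (3 Chtop tags and 18 of Alyref). SMG1 exon 9, of a kinase of nonsense-mediated decay, held 3, 11 and 5 Alyref tags and 0, 8 and 9 Chtop tags (adjusted p 0.875). SMG1 also has partial copies in the genome, which makes its counts uncertain. On the same density scale, short exons of export genes were at -0.28 ± 0.40 (SD, n = 3) in Alyref and -0.999 ± 0.0916 (SD, n = 3) in Chtop, and those of EJC and NMD genes at 0.90 ± 0.26 (SD, n = 3) and 0.29 ± 0.35 (SD, n = 3). Differences between families were not tested.

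In Chtop the short exons with the highest mean CPM were shared with Alyref or rested on 1 library. LENG8 exon 2 held 2, 19 and 9 Chtop tags and 3, 25 and 25 Alyref tags (log2 Alyref against Chtop 0.82 ± 0.49, adjusted p 0.292). UBR4 exon 10, of a ubiquitin ligase, held 3, 2 and 6 Chtop and 1, 6 and 2 Alyref tags, and ALMS1 exon 7 held 3, 5 and 0 Chtop tags and none of the other groups. In UBR4 exon 10 as printed, 3 bases carried at least 2 tags.

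The highest exons of Nxf1 and of the Control by mean CPM rested on 1 or 2 tags in replicate 1, the shallowest library of each. C2CD5 exon 5, RPS21 exon 3 and ADAM15 exon 13 each held 1 tag in Nxf1 1, with 2, 2 and 0 in Nxf1 2 and 0, 0 and 3 in Nxf1 3. KNTC1 exon 36 and BBX exon 3 each held 2 tags in Control 1 and none in Control 2 and 3, and ABCC6 exon 20 held 1, 0 and 2. A floor of 3 tags is worth 427 CPM in Control 1 and 369 CPM in Nxf1 1, against 4.75 CPM in Alyref 2. No ranking of single short exons is therefore possible in these groups.

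Exons under 40 nt were reached as well. RCC1 exon 2 of 33 nt, in the untranslated leader, held 2, 9 and 8 Alyref tags and 0, 2 and 0 Chtop tags, a ratio of 7.33 (exact interval 1.77 to 64.9, edgeR adjusted p 0.0147). It overlaps another annotated gene on its strand, so that its tags cannot be given to RCC1 alone. LMF2 exon 3 of 29 nt held 0, 4 and 5 Alyref and 0, 3 and 1 Chtop tags, which was below the 20 tags needed for the test. In its sequence the 3 capitals lie in the uracil-rich stretch at the middle.

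Against the Control no short exon was called by edgeR in any factor. The shares called over all 4271 middle exons were 0.0234% in Alyref against Control, 5.43% in Chtop against Control and 0% in Nxf1 against Control. At an unadjusted edgeR p under 0.05 there were 136, 10 and 8 of the 266 short exons in the same order. Over all 4271 middle exons these counts were 1376, 1356 and 184. Most of the 266 were tested because of their Alyref tags, so the count for Alyref describes the exons tested. DESeq2 called 0, 3 and 0 short exons. The 3 were ENO1 exon 3, GPI exon 16 and ITCH exon 3, lower in Chtop than in the Control and named after their values were seen. ENO1 exon 3 held 0, 1 and 1 Control and 0, 2 and 1 Chtop tags in replicates 1, 2 and 3. GPI exon 16 held 1, 1 and 0 Control and 0, 1 and 1 Chtop tags, and ITCH exon 3 held 1, 2 and 0 and 0, 1 and 2. The calls thus rest on very few tags. Over all middle exons DESeq2 called 0 higher and 6 lower in Chtop. All Control libraries together held 1001 tags in short middle exons. Among exons of 200 nt or more, 228 of 2285 were called in Chtop against the same Control libraries.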

How the data were processed

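The deposited values are counts: per the labels and the study's methods, the authors removed phiX reads with bowtie 1.1.2, extracted random barcodes with UMI-Tools 0.5.3, trimmed with Reaper, aligned uniquely with STAR 2.4.2a to hg19, merged lanes and counted deduplicated reads (tags) per crosslinked base and strand. Aligned reads may cross annotated junctions, which matters where exons are shorter than reads. The 32 lane runs form 12 libraries. The authors' pooled tracks were not used, and 0 columns of per-sample values were left unused.

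Middle exons came from GENCODE release 44 mapped to GRCh37, a later annotation than that of the alignment. There were 19234 protein-coding genes with a canonical transcript. The mitochondrial chromosome and 647 readthrough genes were left out, and 349 exons listed more than once were counted once. Densities had 0.5 tag added to each sum. Single exons were compared by the quasi-likelihood test of edgeR 4.0.16 (TMM scaling, group as the only term, all 12 libraries, at least 20 tags, Benjamini-Hochberg over all middle exons) in R 4.3.3, with DESeq2 1.42.0 as an alternative. The permutation test, the log2 density ratio and the edgeR step were tested on simulated data.

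The exons named are the 3 with the highest mean CPM in each group, the 5 with the largest fold change called between Alyref and Chtop, the 3 most tagged under 40 nt and the most tagged of each of 9 families. The members, lists and tests were chosen with earlier results of these data known. The rule asked for up to 5 exons in each direction, and 0 were called lower in Alyref. Of the exons the rule names, 2 are not reported here.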

Additional observations from a re-analysis of the deposited data

How the results depend on the processing

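Over the middle exons tested, same-numbered libraries of 2 groups had correlations of their deviations between -0.0237 and 0.0508. Those of libraries of different number lay between -0.0349 and 0.037. These values show no pairing by number, but with tags this sparse they cannot exclude it, and replicate 1 was the shallowest library of each group. With the number as a replicate block (27 assignments), the differences from the other factors were -0.50 for Chtop in short exon density (exact permutation p 0.111), -3.28 points for Chtop in the window (p 0.0741), 0.29 for Alyref in the preceding exon (p 0.111), -0.78 for Nxf1 in the exon to intron ratio (p 0.0741) and -7.04 points for Nxf1 in uracil, which then passed (p 0.037). With the block 58 short exons were called higher in Alyref than in Chtop, and SRSF11 exon 7 was at an adjusted p of 0.0505. Values near 0 changed sign. Without exons overlapping another gene the gradient of Alyref against Control was -0.0259, the share past the midpoint for Chtop -0.123 points, the window of Alyref against Control -0.0145 points and the skippable ratio of Nxf1 0.0131. The last was 0.0197 with coding exons only. Without the exon after the first, an alternative added after seeing the data, it was 0.0496, the gradient of Nxf1 against Control was -0.00269 and the window of Alyref against Control -0.106 points. The exon to intron difference of Alyref passed the test at 0.77 without overlapping exons, 0.76 with coding exons and 0.75 with 50 nt of intron (exact permutation p 0.0476, 0.0476 and 0.0357). The cause of these changes was not tested. Leaving out libraries, replicate 1 of every group included (also added after seeing the data, and with a smallest exact permutation p of 0.0667 for 2 libraries against 4), gave these ranges. For short exon density they were 0.49 to 0.60 (Alyref), -0.64 to -0.45 (Chtop), -0.14 to 0.10 (Nxf1) and -0.32 to -0.16 (Nxf1 against Control). For the gradient they were 0.17 to 0.26 (Chtop), 0.15 to 0.32 (Chtop against Control), -0.0858 to 0.0822 (Alyref against Control) and -0.0321 to 0.136 (Nxf1 against Control). For the share past the midpoint they were -1.25 to -0.670 (Alyref) and -0.136 to 0.666 points (Chtop). For the window they were 3.54 to 4.24 (Alyref), -4.02 to -2.82 (Chtop) and -0.820 to 0.745 points (Alyref against Control). For the preceding exon they were 0.24 to 0.33 (Alyref), -0.44 to -0.31 (Chtop) and -0.0614 to 0.0173 (Nxf1 against Control). For the exon to intron ratio they were 0.59 to 0.98 (Alyref), -0.19 to 0.23 (Chtop) and -1.21 to -0.50 (Nxf1). For uracil they were -0.0107 to 5.31 (Chtop) and -9.63 to -2.79 points (Nxf1). For the skippable ratio they were -0.23 to -0.10 (Chtop), -0.11 to 0.13 (Nxf1), -0.221 to 0.0193 (Alyref against Control) and -0.326 to 0.0360 (Nxf1 against Control). The short exons called between Alyref and Chtop numbered 0 to 85 on leaving out libraries, 219 with median-ratio size factors, 15 with DESeq2 and 0 of 26122 with no filter on low counts. Over all middle exons the last 3 of these settings gave 1506, 54 and 0 higher and 11, 0 and 0 lower. DESeq2 called 3 short exons in Chtop against Control, on very few tags. The default filter of edgeR left 23 middle exons and no short one, so it gave no value. The 13 exons named here and called higher in Alyref had an adjusted p under 0.05 in 170 of 233 combinations of exon and alternative.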
